A study of Mus musculus with 37 samples.

Results

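Metallothionein 1 (Mt1), metallothionein 2 (Mt2), their activator Mtf1 and the zinc exporter Slc30a1 were followed in mouse primordial germ cells (PGCs), which give rise to eggs and sperm. These were 4 of the 24318 genes measured. They were found by symbol, and they had been chosen by their RPKM in single libraries, compared by stage and genotype. Their differences between genotypes and between stages are therefore given as descriptions, with a standard error and with no test. RPKM is a read value divided by transcript length and by library size.

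The mutant embryos, called DCKO in the sample titles, are labelled Dnmt1 -/-. Dnmt1 copies DNA methylation to the new strand when DNA is replicated. They came from mothers homozygous for the Dnmt1 2lox allele that also carried the Oct4-IRES-Gfp reporter, mated with Blimp1-Cre males, so recombination takes place in cells in which Blimp1 drives Cre, germ cells among them. The controls are labelled wild type and came from the same crosses, and the labels do not say which Dnmt1 and Cre alleles they carried. PGCs of both genotypes were sorted by green fluorescence, and their RNA was amplified before sequencing. The E10.5 set held 3 DCKO libraries (2 from females, 1 from a male) beside 4 controls, 2 per sex. The E11.5 set held 10 DCKO libraries (6 from females, 4 from males) beside 8 controls, 4 per sex. Whether the replicates are separate embryos is not stated in the labels, so p-values cover only the spread among these samples, part of which may be technical.

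Metallothioneins are small, cysteine-rich proteins that bind zinc, copper and cadmium, and so buffer zinc inside the cell. When free zinc rises, the zinc-finger protein Mtf1 enters the nucleus and binds metal response elements in the promoters of Mt1, Mt2 and Slc30a1. Slc30a1 then carries zinc out across the plasma membrane. Mt1 and Mt2 are strongly expressed in mouse visceral endoderm and fetal liver, and glucocorticoids and oxidative stress also raise them.

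Mt2 and Mt1 are neighbours on chromosome 8, in the order Mt3, Mt2, Mt1, Nup93. The promoters of the 3 genes with metal response element cores are shown because the metallothionein genes share an activator and a position, yet had unlike values at E11.5. The sequences are those of RefSeq on GRCm38.p6, plus strand, which is the coding strand of each gene. All 4 genes had an entry, and each window covers the bases around the RefSeq start. It lies at chr8:94178839-94179138 for Mt1, chr8:94172368-94172667 for Mt2 and chr1:191906531-191906830 for Slc30a1. Capitals mark the cores TGCACNC and TGCGCNC, found on either strand. A core on the opposite strand appears as its reverse complement.
Mt1: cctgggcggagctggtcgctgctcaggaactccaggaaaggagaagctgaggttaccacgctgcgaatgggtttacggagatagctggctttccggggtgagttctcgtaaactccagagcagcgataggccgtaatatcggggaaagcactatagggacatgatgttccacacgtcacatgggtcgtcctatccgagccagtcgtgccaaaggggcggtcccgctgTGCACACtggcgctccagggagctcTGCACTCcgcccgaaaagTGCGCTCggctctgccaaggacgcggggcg
Mt2: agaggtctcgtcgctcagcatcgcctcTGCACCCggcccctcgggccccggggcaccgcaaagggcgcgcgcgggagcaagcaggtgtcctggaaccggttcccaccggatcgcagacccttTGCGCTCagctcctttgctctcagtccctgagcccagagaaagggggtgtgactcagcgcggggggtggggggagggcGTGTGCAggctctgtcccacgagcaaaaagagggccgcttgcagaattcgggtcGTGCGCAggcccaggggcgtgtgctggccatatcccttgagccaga
Slc30a1: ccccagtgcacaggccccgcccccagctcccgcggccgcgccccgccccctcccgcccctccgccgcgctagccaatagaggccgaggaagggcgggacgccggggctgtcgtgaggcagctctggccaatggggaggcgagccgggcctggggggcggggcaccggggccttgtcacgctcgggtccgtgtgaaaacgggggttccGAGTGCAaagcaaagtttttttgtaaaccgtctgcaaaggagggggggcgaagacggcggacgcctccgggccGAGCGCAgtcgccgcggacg

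The Mt2 window held 4 cores, the Mt1 window 3 and the Slc30a1 window 2, and the Mtf1 window, at chr4:124802299-124802598, held none. Of 32851 promoter windows of this length in the table, 25.7% held at least 1 core, 7.11% at least 2, 1.97% at least 3 and 0.517% at least 4. TGCACNC alone was present in 12.6% of windows and TGCGCNC in 15.4%. The Mt1 cores began at -23, 3 and 21, counted from 1 at the gene start, with negative numbers before it. The Mt2 cores were more spread out and began at -223, -128, -50 and 5. The antioxidant response element core TGACNNNGC, searched on both strands and present in 12.4% of windows, was found once in the Mt2 window at -79 and once in the Slc30a1 window at -82. It was not among the letters of the Mt1 window. The Mt1 and Mt2 windows held 24 CpG dinucleotides each, the Slc30a1 window 36 and the Mtf1 window 25, against a median of 7 over all windows. These matches describe letters, not bound sites. The counts depend on the RefSeq start used for each gene, and letters beyond the window ends were not searched. A core missing from a window may therefore lie outside it.

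**Figure D1:**
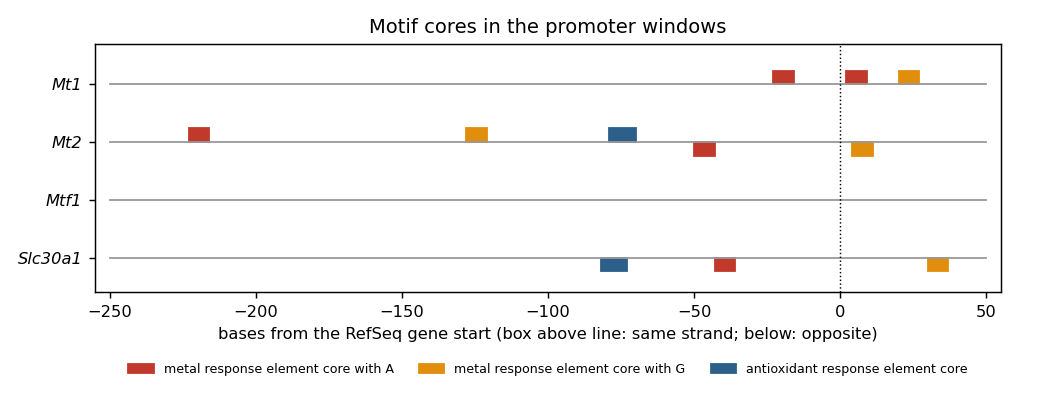
Positions of motif cores in the promoter windows of Mt1, Mt2, Mtf1 and Slc30a1, in bases from the RefSeq start (x axis). Boxes above a line are cores on the gene's own strand and boxes below it are on the opposite strand; the Mt2 window holds 4 metal response element cores, Mt1 3, Slc30a1 2 and Mtf1 none.

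The libraries were checked first. The DCKO and control libraries did not overlap in Dnmt1, with 13.0 to 59.4 RPKM in DCKO against 72.9 to 296 RPKM in controls at E11.5, and 14.9 to 29.6 RPKM in DCKO against 74.1 to 107 RPKM in controls at E10.5. All 12 germ cell markers reached 1 RPKM in some library of each genotype and stage. At E11.5 male control 3 stood apart, with a summed germ cell marker level of 293 RPKM against 1348 to 5385 RPKM in the others, and with the highest somatic marker level. Male DCKO 1 held the lowest germ cell marker sum among DCKO libraries, 1348 RPKM. From 6 to 60 of 3491 abundant genes were listed at 0 per E11.5 library, and 9 to 37 of 3595 at E10.5, so an exact 0 may be a failed estimate. The depth of the libraries is unknown. Each stage has its own table, and levels across stages are set side by side without a test, because separate normalization of the tables is possible. In sorted pools, fewer cells that contain a transcript and less of it per cell cannot be told apart.

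Mt2 was the most abundant of the 4 genes. Among all genes listed in a library, it had median percentile ranks by RPKM of 97.9 at E10.5 and 97.3 at E11.5. Mt1 followed with 90.3 at E10.5 and 75.4 at E11.5, Slc30a1 with 72.9 and 71.9 in that order of stages, and Mtf1 with 70.2 and 66.5. Mt2 exceeded Mt1 in all 18 E11.5 libraries, by 0.703 against 0.695 RPKM in male DCKO 1 and by more in the other libraries. Slc30a1 exceeded Mtf1 in 15 of 18. The place of Mt1 in this order was not fixed: it exceeded Slc30a1 in 10 of the 18 libraries and Mtf1 in 12. RPKM is scaled by length, so these are comparisons of levels between genes.

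**Figure D2:**
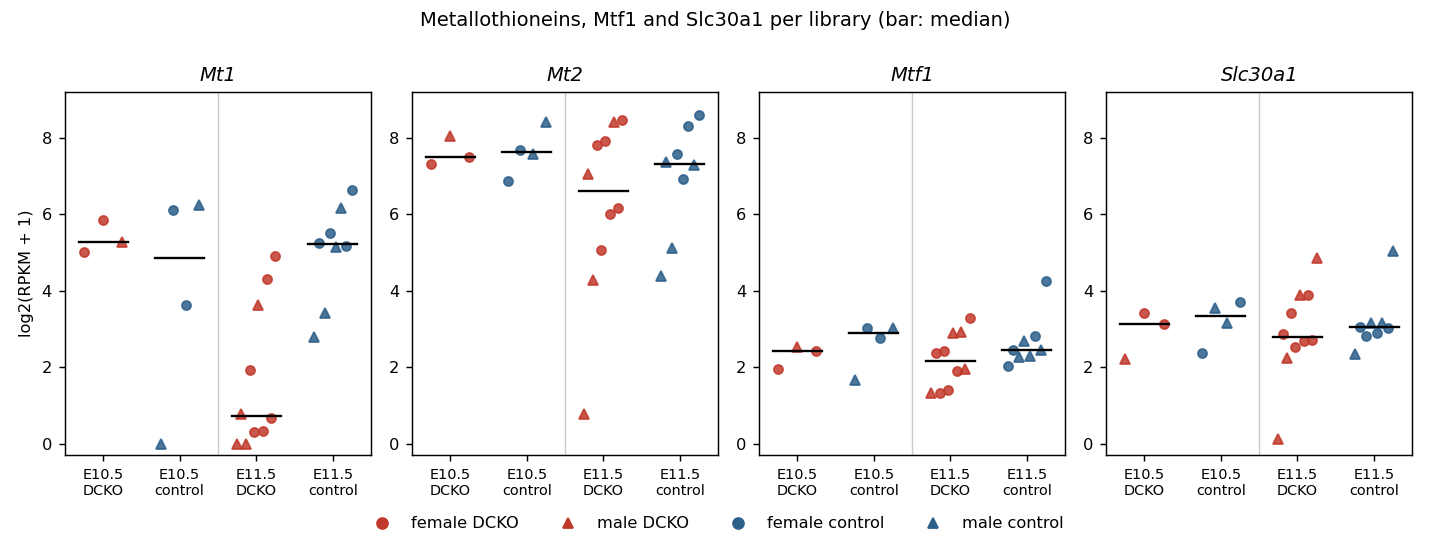
Level of each gene in log2(RPKM + 1) (y axis) in every library, by stage and genotype, with circles for female and triangles for male libraries and a bar at the median. Mt1 at E11.5 lies low in most DCKO libraries, 6 of 10 being under 1 RPKM, while no control is below 5.93 RPKM; the other 3 genes overlap widely between genotypes.

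Mt1 was low in most DCKO libraries at E11.5 and present in every control library of that stage. In the 6 female DCKO libraries it had 18.7, 0.241, 28.9, 2.78, 0.593 and 0.250 RPKM, and in the 4 male DCKO libraries 0.695, 0, 0 and 11.3 RPKM. In the 4 female controls it had 98.9, 44.5, 34.9 and 37.2 RPKM, and in the 4 male controls 5.93, 34.4, 9.72 and 70.7 RPKM. Of the 10 DCKO libraries 6 were under 1 RPKM, 2 of these being listed at 0, and 3 had more than 10 RPKM. Female DCKO 4, with 2.78 RPKM, lay between them. The median was 0.644 RPKM in DCKO and 36.1 RPKM in controls. All 6 female DCKO libraries lay below the lowest female control. Among males, 3 of 4 DCKO libraries lay below the lowest control, and male DCKO 4 exceeded male controls 1 and 3. Over both sexes, 7 of 10 DCKO libraries were below the lowest control, and 6 of 8 controls were above the highest DCKO library.

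The difference in Mt1 at E11.5, DCKO minus control, was -3.43 on the log2(RPKM + 1) scale (SE 0.72, limma). Of the 12667 genes tested at that stage, 10 (0.0789%) had a lower difference. In this comparison 3 genes of 12667 (0.0237%) passed a Benjamini-Hochberg adjusted p of 0.05 in limma, and none of the 4 genes described here was among them. Since the genotype values had a part in the choice of the 4 genes, that rank and that count are given for completeness only and are no test. The size depended on how low values were treated: it was -4.80 with a pseudocount of 0.1, and -2.88 with the 2 zeros set to missing. Leaving out any 1 of the 18 libraries gave -3.13 to -3.85.

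Sample titles carry a number ahead of their dash that groups some libraries, although the labels do not say what it stands for. At E11.5, 5 of these numbers held both genotypes, and in all 5 every DCKO library had less Mt1 than every control library, which makes 13 of 13 pairs. Several libraries enter more than 1 pair, so the pairs are not independent. The share of all genes with such a separation was not computed, and Mt1 was chosen with genotype values in view. Under number 85 Mt1 had 18.7 RPKM in DCKO against 98.9 RPKM in the control. Under number 87 the DCKO libraries had 0.241 and 28.9 RPKM, against 44.5 RPKM in the control. Under number 89 both DCKO libraries were listed at 0, against 5.93 and 34.4 RPKM in the controls. Libraries of 1 genotype could differ widely within a number. Under number 90 the DCKO library had 2.78 RPKM, against 9.72 and 34.9 RPKM in the controls. Under number 92 the DCKO libraries had 0.250 and 11.3 RPKM, against 37.2 and 70.7 RPKM in the controls. The lowest controls and the most expressing DCKO libraries thus came under different numbers. The same pairs gave 7 of 13 for Mt2, 10 of 13 for Mtf1 and 8 of 13 for Slc30a1.

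**Figure D3:**
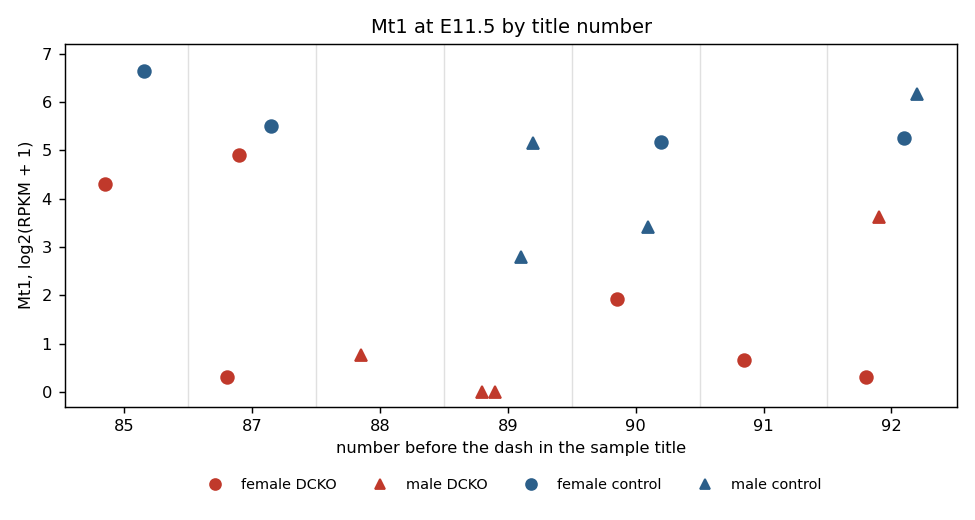
Mt1 at E11.5 in log2(RPKM + 1) (y axis) by title number, the one ahead of the dash (x axis), DCKO libraries in red to the left of controls in blue, circles female and triangles male. Within each of the 5 numbers that hold both genotypes, every DCKO point lies below every control point. Mt1 was chosen with genotype values in view, and the share of all genes separated in this way was not computed.

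At E10.5 the DCKO libraries were not set apart from the controls. Mt1 had 31.4 and 56.6 RPKM in the female DCKO libraries and 37.6 RPKM in the male one, against 11.4 and 67.8 RPKM in the female controls and 75.3 RPKM in a male control. The other male control, replicate 1, was listed at 0. The DCKO libraries all lay within the range of the controls, and the medians were 37.6 RPKM in DCKO and 39.6 RPKM in controls. Of the 2 title numbers with both genotypes at E10.5, number 67 had 37.6 and 56.6 RPKM in DCKO against 67.8 and 75.3 RPKM in controls, and number 58 had 31.4 RPKM in DCKO against 11.4 RPKM in the control. DCKO was thus lower in 4 of 5 pairs, which share libraries and are not independent. The fitted difference was 1.196 (SE 1.34), and it was 0.05 without male control 1. At this stage 0 of 11584 genes (0%) passed the adjusted threshold in limma. Set beside each other without a test, the control medians were 39.6 RPKM at E10.5 and 36.1 RPKM at E11.5. The DCKO medians were 37.6 RPKM at E10.5 and 0.644 RPKM at E11.5. The E10.5 control median lies between 11.4 and 67.8 RPKM with no library near it, so it says little about whether controls were stable between stages.

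Mt2 stayed abundant in most DCKO libraries at E11.5. It had 62.8, 224, 355, 70.2, 32.6 and 242 RPKM in female DCKO and 0.703, 133, 18.5 and 341 RPKM in male DCKO libraries. In controls it had 317, 189, 121 and 383 RPKM in females and 33.6, 164, 19.9 and 155 RPKM in males. The genotypes overlapped over almost their whole range: 2 of 10 DCKO libraries lay below the lowest control and none above the highest. The median was 101 RPKM in DCKO and 159 RPKM in controls, and the difference on the log2(RPKM + 1) scale was -0.92 (SE 0.81). Much of it came from male DCKO 1, the one library with under 1 RPKM, without which the difference was -0.20. At E10.5 Mt2 had 159 and 181 RPKM in female DCKO and 266 RPKM in male DCKO, against 117 and 205 RPKM in female and 191 and 342 RPKM in male controls. All 3 DCKO values lay inside the control range, and the difference was 0.10 (SE 0.35), from -0.11 to 0.30 on leaving out 1 library, below 0 without female control 1 or male control 1.

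The share of Mt1 in the metallothionein total was low in most E11.5 DCKO libraries. Mt1 made up a median of 2.50% of the summed Mt1 and Mt2 RPKM in E11.5 DCKO libraries, with a range of 0% to 49.7%, and 20.8% in controls, with a range of 8.85% to 32.8%. In 8 of the 10 DCKO libraries the share was below the lowest control, and the exceptions were female DCKO 1 with 23.0% and male DCKO 1 with 49.7%. In male DCKO 1 both genes were under 1 RPKM, so its share rests on very low values. Female DCKO 2 and female DCKO 6 were the clearest cases of the opposite kind, with 224 and 242 RPKM of Mt2 and 0.241 and 0.250 RPKM of Mt1. The summed level had a median of 107 RPKM in DCKO, from 1.40 to 384 RPKM, and of 212 RPKM in controls, from 29.6 to 420 RPKM. At E10.5 the Mt1 share had a median of 16.4% in DCKO, from 12.4% to 23.9%, and of 13.47% in controls, from 0% to 24.8%.

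**Figure D4:**
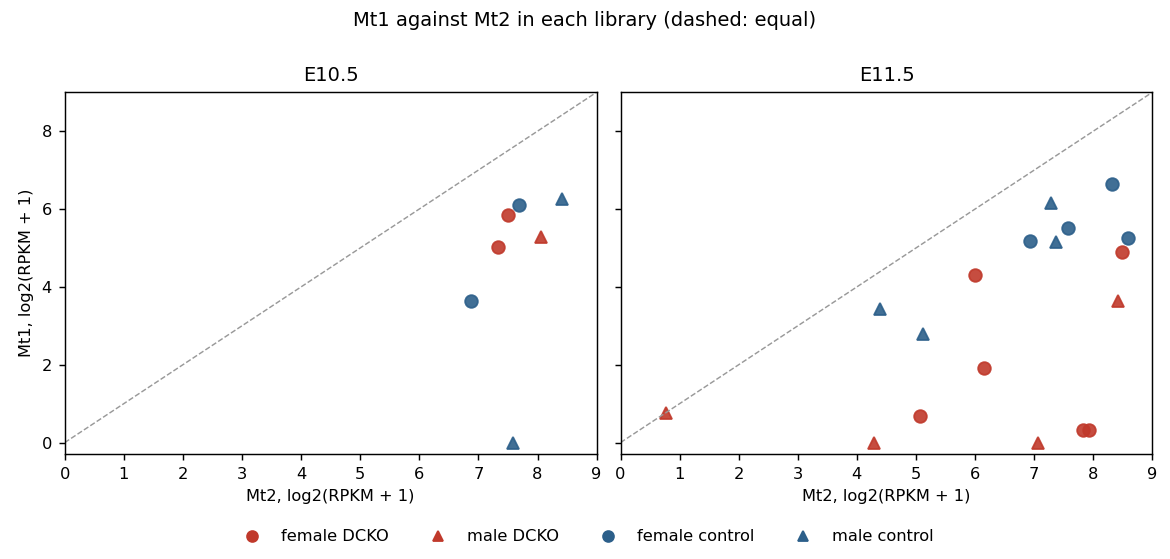
Mt1 (y axis) against Mt2 (x axis) in each library, both in log2(RPKM + 1), at E10.5 (left) and E11.5 (right), with a dashed line of equal levels. At E11.5 the DCKO points (red) reach from Mt1 levels of 0 to 28.9 RPKM at Mt2 levels of up to 355 RPKM, while in every control (blue) Mt1 makes up at least 8.85% of the summed RPKM.

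Mtf1, the zinc-sensing activator of both genes, was a low transcript in all groups. At E11.5 it had 1.48, 3.52 and 8.75 RPKM as lowest, median and highest value of the DCKO libraries, against 3.11, 4.45 and 17.9 RPKM in controls. The groups overlapped, although 5 of 10 DCKO libraries lay below the lowest control. The difference was -0.46 (SE 0.39). Female control 3, at 17.9 RPKM, stood above all other libraries, the next control having 6.04 RPKM, and without it the difference was -0.24. At E10.5 Mtf1 had 4.34, 2.85 and 4.72 RPKM in DCKO, against 5.79, 7.08, 2.16 and 7.10 RPKM in controls. There 3 of 4 controls were above the highest DCKO library, and the difference was -0.35 (SE 0.64).

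Slc30a1, the exporter, was low to moderate and similar between genotypes. At E11.5 its lowest, median and highest values were 0.0791, 5.89 and 28.1 RPKM in DCKO, against 4.08, 7.21 and 32.04 RPKM in controls. The lowest value belonged to male DCKO 1, the library in which Mt1 and Mt2 were also under 1 RPKM. The highest value of each genotype belonged to male replicate 4, and these 2 libraries also had the fewest genes at 1 RPKM or more of the E11.5 set, 8607 in DCKO and 8277 in the control. The difference was -0.29 (SE 0.52), and it was 0.15 without male DCKO 1. At E10.5 Slc30a1 had 9.69, 7.66 and 3.67 RPKM in DCKO, against 12.02, 4.19, 10.7 and 7.87 RPKM in controls, which overlap. The difference was -0.31 (SE 0.62), and it was 0.23 without the male DCKO library and -0.78 without female control 2.

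For 3 of the 4 genes an overlapping gene could share reads, and the effect on the values was not tested. In the GENCODE vM21 annotation of GRCm38, 54.6% of the 36-base words of the Mt2 transcripts, read on either strand, also occur in the antisense gene Gm45774. For Mtf1 7.71% occur in 1110065P20Rik on the opposite strand, and for Slc30a1 8.28% occur in the antisense gene 1700034H15Rik. Mt1 shared none of its 1278 words with another gene. Gm45774 had no entry of its own among the genes measured at either stage. The values were made on another build, mm9, and the labels do not say that counting used strand. Whether reads of these pairs were told apart is therefore unknown. 1110065P20Rik had a median of 27.0 RPKM in DCKO, from 0 to 171 RPKM, and of 8.48 RPKM in controls, from 0 to 37.5 RPKM, at E11.5. At E10.5 it had 17.2 to 23.3 RPKM in DCKO against 0.755 to 12.2 RPKM in controls, and its part in the Mtf1 values was not tested.

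The sexes were compared at E11.5, which the choice of genes did not use. The difference, male minus female, averaged over genotypes, was -1.79 for Mt2 (SE 0.81, limma adjusted p = 0.864). Mt2 had a median of 83.1 RPKM in the 8 male libraries and 207 RPKM in the 10 female ones, and the ranges overlapped, from 0.703 to 341 RPKM in males and from 32.6 to 383 RPKM in females. The Mt2 difference was -1.06 without male DCKO 1 and -0.86 without the 3 libraries highest in somatic markers, which include it. Blocked by title number it was -1.06. For Mt1 the difference was -1.12 (SE 0.72, limma adjusted p = 0.895), which turned to 0.62 when blocked by title number, for Mtf1 -0.16 (SE 0.39, limma adjusted p = 0.975) and for Slc30a1 0.12 (SE 0.52, limma adjusted p = 0.987). None of these genes passed the threshold, as against 5 of 12667 genes (0.0395%). Mt2 alone had an unadjusted limma p under 0.05, where 546 of all genes tested (4.31%) were lower and 176 (1.39%) higher in males. In the test of whether the genotype difference itself differed between the sexes, 0 of 12667 genes (0%) passed the adjusted threshold in limma. At an unadjusted p of 0.05, 226 genes were higher and 228 lower in it, so no effect of 1 sex alone is described.

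The genes' levels were then related to each other over the 18 E11.5 libraries on the log2 scale, in 6 pairs. Over all libraries Mt1 and Mt2 had a Pearson r of 0.46 and a Spearman rho of 0.45, Mt1 and Mtf1 an r of 0.45 and a rho of 0.48, and Mt2 and Slc30a1 an r of 0.50 and a rho of 0.09. These values carry the genotype difference by which the genes were chosen, and they are given without a test. With each library centred on its sex and genotype group, Mt1 and Mt2 had an r of 0.38 (permutation p = 0.115, adjusted over the 6 pairs 0.230) and a rho of 0.34 (permutation p = 0.163, adjusted 0.254). Without the 2 libraries farthest from the Mt1 median r was 0.10. In every pair the 2 farthest libraries were picked by the first-named gene alone. Centred in the same way, Mt1 and Mtf1 had an r of 0.29 (permutation p = 0.241, adjusted 0.289) and a rho of 0.34 (permutation p = 0.160, adjusted 0.254), and r was 0.17 without the 2 farthest libraries. Mt2 and Slc30a1 had an r of 0.59 (permutation p = 0.0125, adjusted 0.0750) but a rho of 0.16 (permutation p = 0.521, adjusted 0.521), and r was -0.03 without the 2 farthest libraries, on which that relation rests. No centred pair passed the adjusted threshold. Within the 8 controls Mt1 and Mt2 had an r of 0.86 (exact permutation p = 0.0257, adjusted 0.154) and a rho of 0.69 (exact permutation p = 0.0694, adjusted 0.416). There r was 0.31 without the 2 farthest libraries. That leaves 6 libraries over a narrower range of Mt1, so how far the relation rests on those 2 is not settled. Within the 10 DCKO libraries r was 0.36 (permutation p = 0.320, adjusted 0.384). Over the 7 E10.5 libraries Mt1 and Mt2 had an r of 0.35 (exact permutation p = 0.403, adjusted 0.548).

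The genes most like each of the 4 over the 18 E11.5 libraries were not the other 3. These are described by Pearson r on the log2 scale over libraries that share genotype, sex and quality differences. For Mt1 they were 2810429I04Rik (r = 0.83), the kinase gene Ptk2b (r = 0.80) and the tropomyosin gene Tpm3 (r = 0.80). Over the 7 E10.5 libraries their r with Mt1 was 0.25, 0.88 and 0.11, so Ptk2b alone kept a value near its first. Mt2 ranked 579th among the 12666 other genes by r with Mt1. For Mt2 the closest genes were Cep89 (r = 0.87), the growth factor gene Pdgfa (r = 0.87) and Khdc1a (r = 0.85), with -0.48, -0.01 and -0.57 at E10.5. For Slc30a1 they were the ubiquitin ligase scaffold Cul3 (r = 0.89), Heatr5a (r = 0.87) and Wdtc1 (r = 0.85), with -0.34, 0.44 and -0.21 at E10.5. For Mtf1 they were Mir6378 (r = 0.71), which was at 0 in 16 of 18 libraries, Mcts1 (r = 0.70) and the glycosyltransferase gene Mgat1 (r = 0.68). The last 2 had -0.59 and -0.10 at E10.5.

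Other genes of zinc handling were read from 4 lists of 29 genes in all, of which 21 passed the filter of a mean of at least 1 RPKM at E11.5. None passed the adjusted threshold in the genotype comparison. At an unadjusted p of 0.05, 1 was higher and 1 lower in DCKO, against 219 higher (1.73%) and 473 lower (3.73%) of all 12667 genes tested. The difference was above 0 for 11 and below 0 for 10 of the 21, with a median of 0.06, whereas 5700 of all 12667 genes tested were above 0, with a median of -0.06. At E10.5 19 of the 29 were tested, with 9 above and 10 below 0, a median of -0.01 against -0.05 over all genes tested, and no call. There 0 of the 19 passed an unadjusted p of 0.05, against 173 higher (1.49%) and 185 lower (1.60%) of 11584 genes. In the sex comparison at E11.5, 0 of the 21 passed the adjusted threshold, and at an unadjusted p of 0.05 none was higher and 1 was lower in males, a share close to the 4.31% of all genes.

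The other metallothioneins were absent or low at E11.5. Mt3, the brain form, was listed at 0 in all 25 libraries. Mt4, the form of stratified epithelium, was listed at 0 in 8 of 10 DCKO and 5 of 8 control libraries at E11.5. Its highest values there were 1.36 RPKM in DCKO and 4.54 RPKM in controls. At E10.5 it was listed at 0 in 4 of 7 libraries, and reached 7.82 RPKM in DCKO and 12.96 RPKM in controls. Its mean over that stage was 4.61 RPKM, and its difference was -0.91 (SE 1.32, limma adjusted p = 0.991).

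Of the 14 Slc39 family importers, which bring zinc into the cytoplasm, 11 were tested at E11.5, 6 with a difference above 0 and 5 below, with a median of 0.06. Slc39a10 was the most abundant, with 59.6 ± 26.0 RPKM (SD, n = 10) across DCKO libraries, against 41.6 ± 9.59 RPKM (SD, n = 8) across the controls, a difference of 0.48. Slc39a6, its close relative, had 20.5 ± 6.79 RPKM (SD, n = 10) across DCKO libraries, against 12.5 ± 5.23 RPKM (SD, n = 8) across the controls. The difference was 0.71 (SE 0.28, limma adjusted p = 0.902). Slc39a14, a plasma membrane importer of zinc and iron, ran the other way, with 11.9 ± 10.2 RPKM (SD, n = 10) across DCKO libraries, against 20.1 ± 8.18 RPKM (SD, n = 8) across the controls. Its difference was -0.97 (SE 0.46, limma adjusted p = 0.902). Slc39a7, which releases zinc from the endoplasmic reticulum, differed by -0.08, with 30.4 ± 19.8 RPKM (SD, n = 10) across DCKO libraries, against 31.99 ± 14.9 RPKM (SD, n = 8) across the controls. None of these passed the threshold, and the groups overlapped for each.

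Of the 9 other Slc30 family genes 6 were tested, 3 above and 3 below 0, with a median of -0.01. Slc30a9 was the most abundant, with 23.0 ± 11.2 RPKM (SD, n = 10) across DCKO libraries, against 16.2 ± 5.18 RPKM (SD, n = 8) across the controls, a difference of 0.42. Slc30a5, Slc30a6 and Slc30a7, which load zinc into the secretory pathway, differed by -0.39, -0.13 and -0.60, and none passed the threshold. Of 4 other genes reported as targets of Mtf1, 2 were above and 2 below 0. Gclc, the catalytic subunit of glutathione synthesis, differed by -0.12, the stress gene Ndrg1 by 0.24, the LIM-domain gene Csrp1 by -0.71 and the selenoprotein gene Sepw1 by 0.06.

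**Figure D5:**
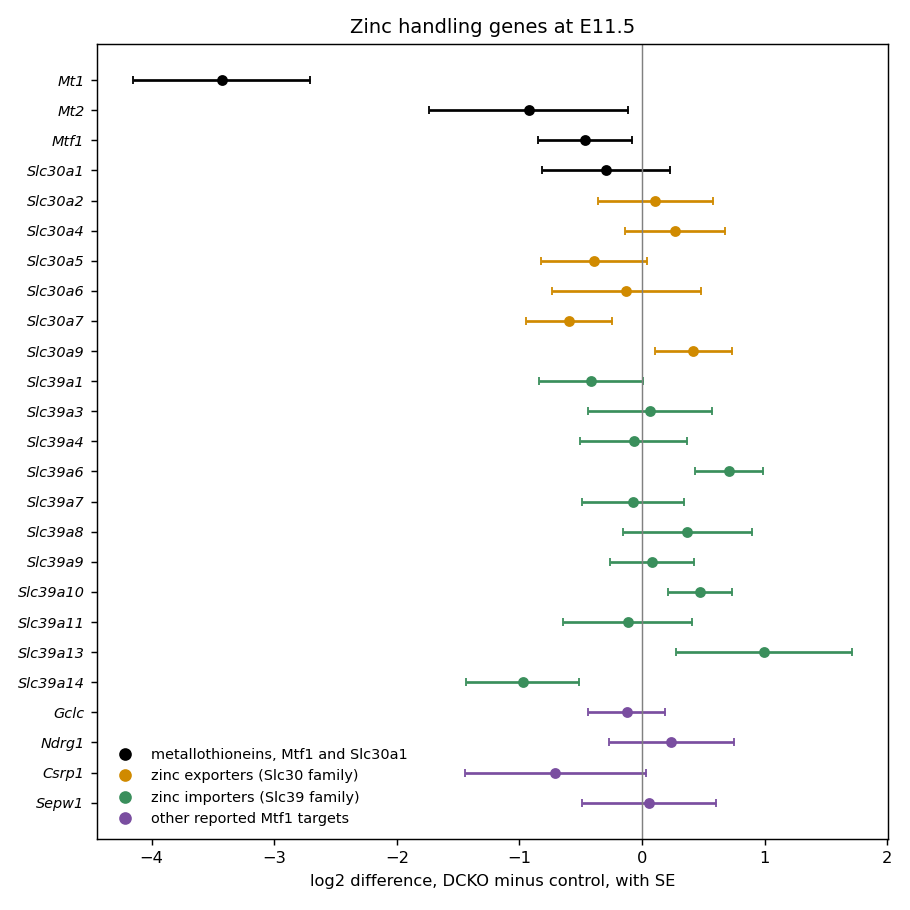
Difference between DCKO and control at E11.5 in log2(RPKM + 1) units (x axis), with bars of 1 SE, for Mt1, Mt2, Mtf1 and Slc30a1 (black) and for the tested zinc exporters, zinc importers and other reported targets of Mtf1 (colours). Mt1 lies at -3.43, and the other zinc genes lie between -0.97 and 1.00.

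Metallothioneins also respond to other signals, and 6 lists of genes of those responses were read in the same comparison: copper handling, oxidative stress, heat shock, glucocorticoids, hypoxia and immediate early genes. Of their 53 genes 44 were tested at E11.5, 15 with a difference above 0 and 29 below, with a median of -0.13. Over all 12667 genes tested, 5700 were above 0 and the median was -0.06. None of the 44 passed the adjusted threshold. At an unadjusted limma p under 0.05, 1 was higher and 2 were lower, against 219 higher (1.73%) and 473 lower (3.73%) of all genes tested. The copper importer Slc31a1 had 7.78 ± 6.31 RPKM (SD, n = 10) across DCKO libraries, against 12.6 ± 4.40 RPKM (SD, n = 8) across the controls, a difference of -1.12 (SE 0.39, limma adjusted p = 0.884). The heat shock co-chaperone Dnajb1 differed by 0.67 (SE 0.24, limma adjusted p = 0.902) and the immediate early gene Ier3 by -1.86 (SE 0.65, limma adjusted p = 0.884). Gclm, the modifier subunit of glutathione synthesis and a target of the oxidative stress factor Nrf2, differed by 0.67, Vegfa of the hypoxia list by -1.01 and Dusp1 of the glucocorticoid list by 0.19.

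Markers of cells that could accompany sorted PGCs were summed per library beside these values. The 9 hepatic and visceral endoderm markers come from tissues rich in metallothionein. At E11.5 they summed to 0.166 to 29.9 RPKM in DCKO (median 6.90) and 1.10 to 88.0 RPKM in controls (median 9.74). In DCKO 2 of these 9 markers were at 0 in all libraries and 5 reached 1 RPKM in some library. In controls none was at 0 in all and 7 reached 1 RPKM. The 8 macrophage markers had a median sum of 0.201 RPKM in DCKO, from 0.0162 to 22.8 RPKM, and 8.64 RPKM in controls, from 0.124 to 42.4 RPKM. Of the 3 tested, all were below 0 and 2 had an unadjusted limma p under 0.05, with no call. Of all 12667 genes tested, 473 (3.73%) were lower at that p. The 10 gonadal somatic markers summed to at most 118 RPKM in DCKO (median 8.39) and 124 RPKM in controls (median 11.6). The 10 mesenchyme markers summed to at most 382 RPKM in DCKO (median 27.3) and 608 RPKM in controls (median 21.9). The 8 endothelium markers summed to 38.2 to 261 RPKM in DCKO (median 92.3) and 51.0 to 224 RPKM in controls (median 84.4). The lowest of these sums was that of male DCKO 4, where the gonadal somatic markers summed to 0 RPKM. Whether germ cells themselves express the endothelium markers was not tested. The 9 erythroid markers reached a sum of 1653 RPKM in DCKO (median 5.33) and 2261 RPKM in controls (median 4.59). The Mt1 difference was -3.62 with the mean somatic marker level as a covariate, and -3.52 without the 3 libraries highest in somatic markers. The Mt2 difference was -1.24 with that covariate and -0.40 without those 3 libraries, which include male DCKO 1. The part of single cell types in these values was not tested.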

How the data were processed

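RNA of sorted PGCs was sequenced, and the authors deposited 1 table of RPKM per stage with 1 column per library. Per the submitters' processing notes the build was mm9, and TopHat2 2.1.0, Cufflinks 2.2.1 and Cuffdiff were used. Which of them made the tables, and with which gene models and strand setting, is not stated. Of 37 labelled samples 25 had values, and the remaining 12, from E13.5, are not analysed here. Low values do not fall on whole-read steps, so depth is unknown and no counting interval is given.

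Groups follow the labels for stage, sex and genotype. limma 3.58.1 (R 4.3.3, trend on the mean) was run on log2(RPKM + 1) for genes whose mean reached 1 RPKM, and this scale understates the change of low genes. At E11.5 the model had 1 mean for each of the 4 combinations of sex and genotype, and the genotype difference averaged those of females and males. At E10.5 genotype and sex were additive. P-values were two-sided, with Benjamini-Hochberg adjustment over all genes tested. Correlations used 100000 permutations, or all of them for fewer than 10 libraries (SciPy 1.17.1). All libraries were distinct, with r of at most 0.934 between them. The fit was tested on simulated data.

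The 4 genes and all lists were chosen with earlier results of these data known. Genes named from a list were those with the smallest p at E11.5, 2 per zinc list or 1 per other list, as none passed, and the 3 highest in mean RPKM per zinc list. For each of the 4 genes, the 3 with the highest r are named. Alternatives covered the pseudocount, filter, scaling, model, blocks and single libraries. Those without the libraries highest in somatic markers, without those with the fewest genes, and with zeros as missing were chosen after seeing the data.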

Additional observations from a re-analysis of the deposited data

Results flagged for a closer look

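Single libraries stood far from the rest of their group in 6 of the 28 groups of 4 to 10 libraries examined, by the gap to the nearest library over the range of the group. For values with a normal spread chance marks about 1 in 20 groups, but RPKM values are skewed and some of these groups contain others, so the rate here is not known. Mt1 had 11.3 RPKM in male DCKO 4, where the next of the 4 male DCKO libraries had 0.695 RPKM. Mt1 had 98.9 RPKM in female control 1, where the next female control had 44.5 RPKM. Mtf1 had 17.9 RPKM in female control 3, where the next of the 8 controls had 6.04 RPKM. Slc30a1 had 28.1 RPKM in male DCKO 4, where the next of the 10 DCKO libraries had 13.9 RPKM. Slc30a1 had 32.04 RPKM in male control 4, where the next control had 7.92 RPKM, and this library stood apart both among the 8 controls and among the 4 male ones.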

How the results depend on the processing

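The Mt1 difference at E11.5 stayed below 0 under every alternative run, from -2.88 to -4.80. It was -3.04 with a replicate block by replicate number and -3.16 when blocked by title number. Deviations from the group means had an r of -0.17 to 0.15 over 8 pairs of the same replicate number at E11.5, 2 of them over 0.1. Over 13 pairs of the same title number r ran from -0.02 to 0.49, and 6 were over 0.1, so some but not all libraries of a title number deviated together. Mt2 kept its sign at E11.5. Slc30a1 was 0.11 when blocked by title number.

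Counts of all genes called moved as follows, and the causes were not tested. For genotype at E11.5 (3) it was 0 with zeros as missing and 2 to 5 on leaving out 1 library, with 5 without male control 1 or male DCKO 3. For genotype at E10.5 (0) it was 0 to 11 on leaving out 1 library, with 11 without male DCKO 1, 4 without either female DCKO library, and 1 without either the library highest in somatic markers or that with the fewest genes. For sex (5) it was 9 with a pseudocount of 0.1, 2 with the replicate block, 1 blocked by title number, 13 with the somatic covariate, 12 without the 2 libraries of fewest genes and 4 to 11 on leaving out 1 library, with 11 without male control 2. For genotype by sex (0) it was 1 with the replicate block and 0 to 1 on leaving out 1 library, with 1 without male control 2. No zinc list gene was called in the genotype or sex fits, and the lists were not counted in those of genotype by sex.

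Signs also turned for small differences. Blocked by title number, Slc30a6 was 0.18, Ndrg1 -0.0326 and Sepw1 -0.38, and for sex Mt1 was 0.62 and Mtf1 0.13. Without the libraries highest in somatic markers Slc30a6 was 0.24, Sepw1 -0.44, Gclc 0.0304 and Dusp1 -0.00605. Slc30a6 was also 0.0175 with quantile normalization and 0.0285 without sex. On leaving out 1 library Slc30a6 ran from -0.52 to 0.17, Slc39a7 from -0.37 to 0.11, Sepw1 from -0.35 to 0.38, Gclc from -0.29 to 0.0832 and Dusp1 from -0.0395 to 0.45. For sex, Mtf1 then ran from -0.30 to 0.0707 and Slc30a1 from -0.23 to 0.56, and Slc30a1 was -0.16 with a pseudocount of 0.1 and -0.50 without the 2 libraries of fewest genes. In controls alone r was 0.0928 for Mt2 with Mtf1 and -0.0341 for Mtf1 with Slc30a1.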

Other observations

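Genes with a pattern like that of Mt1 were counted after the values of Mt1 had been seen. The pattern was presence in all controls at E11.5 and a level near 0 in most DCKO libraries. Mt1 meets it because the pattern was taken from Mt1, so the count is no test of that gene. Of 4598 genes at 5 RPKM or more in all 8 controls, 2 were under 1 RPKM in at least 6 of the 10 DCKO libraries. These were Mt1 and Npm1, an abundant nucleolar protein gene that was listed at 0 in 10 of 10. In the E11.5 controls Npm1 had 2106 to 6115 RPKM. At E10.5 its lowest values were 3308 RPKM in DCKO and 3906 RPKM in controls. Whether the Npm1 zeros at E11.5 are failed estimates was not tested. In the opposite direction, of 3713 genes at 5 RPKM or more in all DCKO libraries, 0 were under 1 RPKM in at least 5 of the 8 controls.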
